A study of Mus musculus with 6 samples.

Results

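The sterol regulatory element-binding proteins (SREBPs) and the proteins that hold, carry and cut them are encoded by 7 genes, *Srebf1*, *Srebf2*, *Scap*, *Insig1*, *Insig2*, *Mbtps1* and *Mbtps2*. They were chosen by gene symbol, and all 7 were found among the 24421 genes of the deposited liver table. Hepatic mRNA was sequenced from 3 wild-type (WT) and 3 *Pai-1*+/- mice, fed standard chow without restriction. The mice are C57BL/6 and 21 weeks old in the labels, while the study's text gives C57BL/6J and a slightly younger age. *Pai-1*+/- mice carry 1 intact copy of the gene in every cell, and came from crossing *Pai-1*-/- with WT mice. The labels call the WT mice male, and the study's figure legends describe both genotypes as male. Livers were flushed with cold saline before sampling, and the RNA is that of whole tissue.

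The values below are the authors' mean normalized count of each gene, which is the mean over the 6 libraries, both genotypes together, of counts divided by a size factor per library. The 6 columns of counts per animal are headed by animal numbers that match no sample label, so no column was assigned to a genotype and none was used. The difference between *Pai-1*+/- and WT livers, which the study was designed to measure, is therefore not given for any of the 7 genes. Because these columns were left out altogether, no value per mouse, SD or test accompanies a level, and a mean can lie between unlike groups.

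SREBPs are made as membrane proteins of the endoplasmic reticulum (ER). Scap, a sterol sensor, binds each SREBP and escorts it in COPII vesicles to the Golgi, where the site-1 protease and then the site-2 protease release the part that enters the nucleus. When sterols are abundant, Insig proteins hold Scap and its cargo in the ER. In liver, SREBP-2 is known mainly for driving cholesterol synthesis and SREBP-1c for driving fatty acid synthesis in response to insulin, and the pathway supplies lipid for membranes and lipoproteins.

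Each gene was placed on the GRCm38 assembly, the one named mm10, from the GENCODE M21 annotation. *Srebf1* spans chr11:60199089-60222581 on the minus strand and *Srebf2* spans chr15:82147181-82205379 on the plus strand. *Scap* lies at chr9:110333288-110384950, plus strand. *Insig1* covers chr5:28071363-28078662 on the plus strand and *Insig2* covers chr1:121304353-121332589 on the minus strand. The site-1 protease gene *Mbtps1* lies at chr8:119508156-119558735 and the site-2 protease gene *Mbtps2* at chrX:157535371-157598715, both on the minus strand. All 7 are protein-coding genes. *Insig1* was the most compact, 7300 bases with 5 exons in its longest transcript, whereas *Scap* had 23 exons across 51663 bases.

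Several of the genes have more than 1 promoter, which matters for reading a value per gene. The annotation holds 3 protein-coding transcripts of *Srebf1*, and their starts lie 1977, 12116 and 15393 bases from the 5′ end of the gene. The start at 1977 bases belongs to the transcript known as SREBP-1a and that at 12116 bases to SREBP-1c, the form that prevails in liver. *Insig2* has 11 protein-coding transcripts, of which 2 start within 39 bases of the 5′ end of the gene and 8 start between 4565 and 4911 bases from it. The upstream start is the one known for the liver transcript Insig-2a, and the downstream group for the widely expressed Insig-2b. The deposited table has 1 value per gene, so *Srebf1* and *Insig2* are given here as sums over their promoters.

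**Figure D1:**
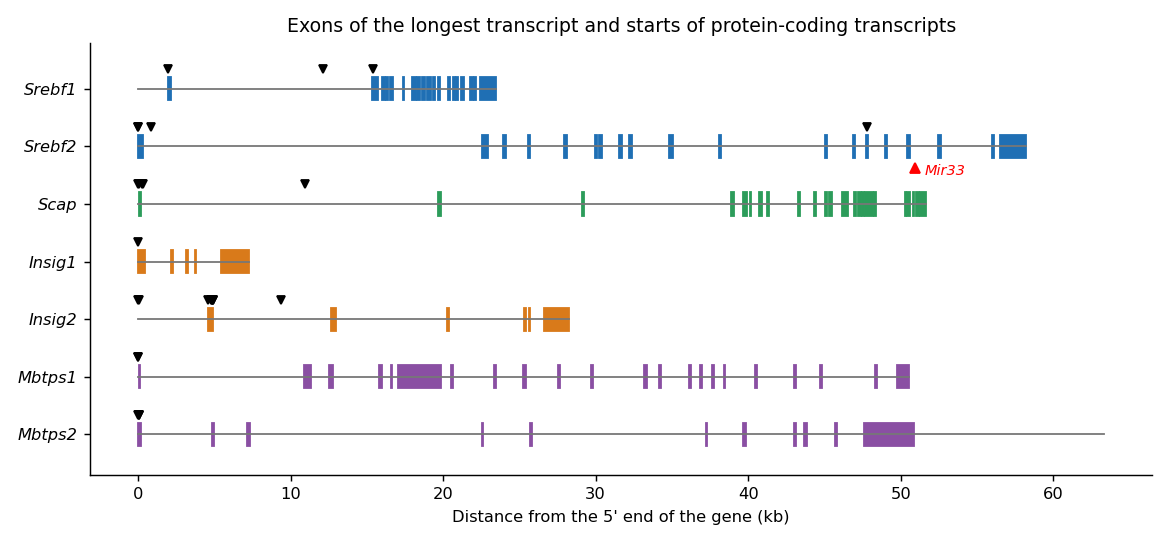
Gene maps of the 7 genes, drawn as distance in kb from the 5′ end of each gene. Boxes are exons of the longest annotated transcript, black triangles are starts of protein-coding transcripts, the grey line is the span of the gene and the red triangle marks *Mir33* inside *Srebf2*. *Insig1* has 1 such start, while those of *Srebf1* lie 1977, 12116 and 15393 bases from its 5′ end.

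Sequence before the annotated starts was taken from RefSeq windows on GRCm38.p6 that run from 250 bases before to 50 bases after a start, and all 7 genes matched at least 1 window (12 windows in all, among 32851). RefSeq starts can lie some bases from those of GENCODE. Windows were searched on both strands for the sterol regulatory element in the form TCACNCCAC, the E-box with its letters CACGTG, the box known by its letters CCAAT, and the TATA box in the form TATAAA. A second form of the sterol regulatory element, TCACCCNA, and a GC box (GGGCGG) were added after the windows had been read. TCACNCCAC was in none of the 12 windows and in 1.24% of all windows. TCACCCNA was in 2 of the 12, 1 of *Srebf1* and that of *Srebf2*, and in 3.75% of all windows. It does not overlap a CCAAT or GC box in either. The 5 stretches below are shown because they carry matches to motifs searched here or separate the 2 promoters of *Insig2*. They end before the start and hold no annotated exon, they are written 5′ to 3′ on the strand of the gene, and capitals mark matches to any of the 6 motifs, so that ATTGG and CCGCCC are a CCAAT box and a GC box on the other strand.
*Srebf1* at the SREBP-1c start, chr11:60210472-60210546, minus strand: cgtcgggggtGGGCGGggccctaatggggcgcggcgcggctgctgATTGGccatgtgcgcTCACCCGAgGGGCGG
*Srebf2*, chr15:82147084-82147169, plus strand: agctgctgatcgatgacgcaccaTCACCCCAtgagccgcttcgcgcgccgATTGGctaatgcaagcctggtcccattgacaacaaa
*Insig1*, chr5:28071177-28071327, plus strand: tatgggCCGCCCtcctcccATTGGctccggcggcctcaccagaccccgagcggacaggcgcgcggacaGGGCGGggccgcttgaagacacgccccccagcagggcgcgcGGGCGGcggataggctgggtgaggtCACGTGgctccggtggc
*Insig2* at the upstream start, chr1:121332590-121332656, minus strand: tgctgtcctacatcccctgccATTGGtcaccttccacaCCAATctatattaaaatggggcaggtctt
*Insig2* at a downstream start, chr1:121328025-121328091, minus strand: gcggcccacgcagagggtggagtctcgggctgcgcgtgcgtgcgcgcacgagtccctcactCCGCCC

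In the *Srebf1* stretch TCACCCGA ran from base -15 to base -8, counted back from -1 at the base before the start, with ATTGG at -30 to -26 and a GC box at -6 to -1. In the *Srebf2* stretch TCACCCCA ran from -162 to -155, with ATTGG at -135 to -131. *Insig1* carried CACGTG at -101 to -96 and ATTGG at -216 to -212. CACGTG was in 3 of the 12 windows, that of *Insig1* and both overlapping *Scap* windows, which hold the same match, and in 7.15% of all. CCAAT on either strand was in 5 of the 12 windows against 37.4% of all. The GC box was in 9 of 12 against 35.7% of all, and the overlapping *Scap* windows share a GC box match too. TCACCCNA and the GC box were added after these same windows had been read, so their counts here cannot test enrichment. The shares were not matched for G and C content. TATAAA was in both *Scap* windows, again as the same match, at -182 to -177 and at -250 to -245 from their starts. It was in 13.6% of all windows. The promoters of *Insig2* differed in composition. The window at the upstream start had 46.0% G and C and 0 CpG dinucleotides, while that at the start 4565 bases further in had 57.0% and 17, and the third 69.3% and 28, against medians of 52.7% and 7 over all windows. A match is a string of letters in a reference sequence. No binding was measured.

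All 7 genes were detected in liver with a mean above 10, which 12971 of the table's 24421 genes had. The mean normalized counts of the 7 summed to 33886, or 0.113% of the table's total, and the *Insig* genes held 62.5% of that sum. To compare genes, each mean was divided by the length of the longest annotated transcript and is given as mean normalized count per kb. The 7 levels then spanned a 71.5-fold range, against 40.2-fold with no division and 117-fold per kb of all exons. Of the 7, 6 lay above 129, the median per kb of the 12499 genes with a mean above 10 and an annotated length.

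The retention genes had the highest levels. *Insig2* had a mean normalized count of 14951, the highest of the 7 and 264th of all genes in the table. Its level was 5544 per kb, higher than that of 98.2% of the genes with a mean above 0. *Insig1*, whose own transcription is known to be switched on by SREBPs, had a mean normalized count of 6232 and a level of 2311 per kb. *Insig2* thus lay 2.40-fold above *Insig1*, with or without division by length, because the longest transcripts of both genes are 2697 bases long. The *Insig2* excess was 2.76-fold per kb of coding sequence and 2.14-fold per kb of all exons. The 2697-base *Insig2* transcript starts in the downstream group. The longest one from the upstream start is annotated at 1292 bases, and a level per kb of that length, which would be higher, was not computed. Of the 75-base stretches of the longest *Insig1* transcript, 0.877% also occur, on either strand, in a transcript of *Gm37784*.

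**Figure D2:**
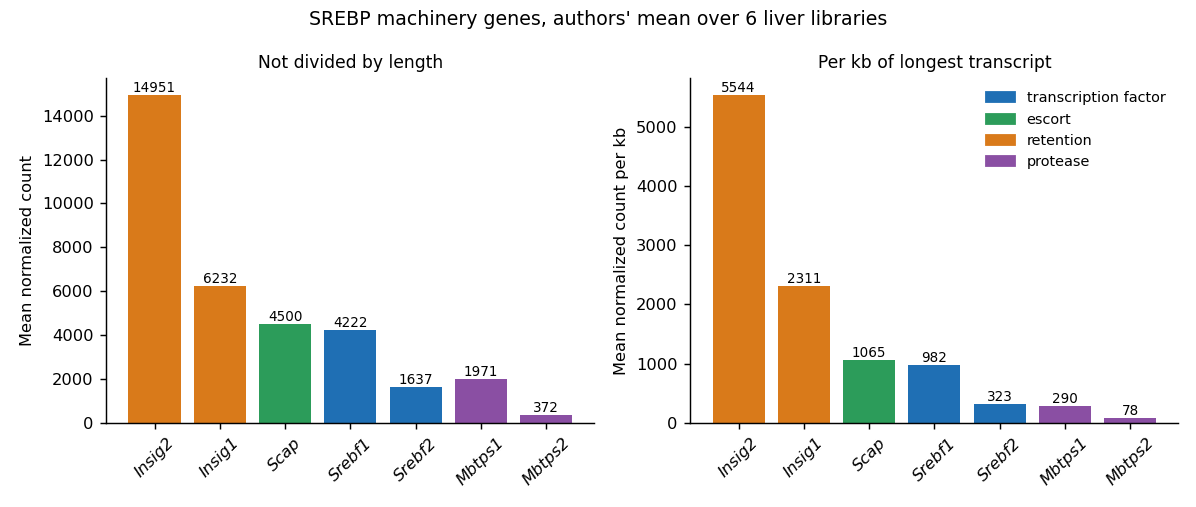
Mean normalized count of the 7 genes, the authors' mean over 6 liver libraries, as deposited (left axis) and per kb of the longest transcript (right axis). Bars are single means with no error, coloured by role, and run from 5544 per kb for *Insig2* to 77.6 per kb for *Mbtps2*.

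*Scap*, the escort, had a mean normalized count of 4500 and a level of 1065 per kb. The level of *Insig1* was 2.17-fold that of *Scap* and the level of *Insig2* 5.21-fold. Both ratios depended on the length used, from 1.38-fold and 3.32-fold with no division to 6.82-fold and 18.8-fold per kb of coding sequence. On the other strand of *Scap*, the annotation places 5830462I19Rik, a gene of a type still to be verified by experiment, which shares 985 exonic bases with it. Of the 75-base stretches of the longest *Scap* transcript, 10.2% also occur in that transcript, read in either direction. The sources used here do not say whether reads were counted by strand, so the *Scap* value is uncertain, and the share of its reads that could come from the other strand was not measured.

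The SREBP genes differed from each other. *Srebf1*, with a mean normalized count of 4222, had a level of 982 per kb, which was higher than that of 91.3% of the genes with a mean above 0. *Srebf2* had a mean normalized count of 1637 and a level of 323 per kb. The level of *Srebf1* was thus 3.05-fold that of *Srebf2*, and between 2.57-fold and 3.29-fold with the other length measures. The longest *Srebf1* transcript, 4299 bases, is the SREBP-1a one. The SREBP-1c transcript is annotated at 3177 bases, and a level per kb of that length, which would be higher, was not computed. *Scap* and *Srebf1* stood close together, 1.08-fold apart, and which of them was higher depended on the length used. *Srebf1* shares 109 exonic bases with *Rai1* on the other strand, and 0.828% of its 75-base stretches occur in transcripts of *Rai1*.

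The protease genes had the lowest levels of the 7 per kb of longest transcript. *Mbtps1*, the site-1 protease gene, had a mean normalized count of 1971 and a level of 290 per kb, 1.11-fold below that of *Srebf2*. Its longest annotated transcript keeps an intron and is 6789 bases long. Divided by the longest protein-coding transcript, 4336 bases, its level was 455 per kb, above that of *Srebf2*. *Mbtps2*, the site-2 protease gene on the X chromosome, had a mean normalized count of 372 and a level of 77.6 per kb, the lowest of the 7 and the only one below the median of 129. The level of *Mbtps1* was 3.74-fold that of *Mbtps2* and the level of *Scap* 13.7-fold. Over the length measures these ratios ran from 2.59-fold to 5.86-fold and from 4.88-fold to 16.4-fold. The intronless gene *Yy2* lies inside *Mbtps2* on the same strand and shares 2867 exonic bases with it, and its own mean normalized count was 42.5. None of the 75-base stretches of the longest *Mbtps2* transcript occurs in a transcript of another gene. The other *Mbtps2* transcripts were not searched, and the share of the *Mbtps2* value that could come from *Yy2* was not measured.

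**Figure D3:**
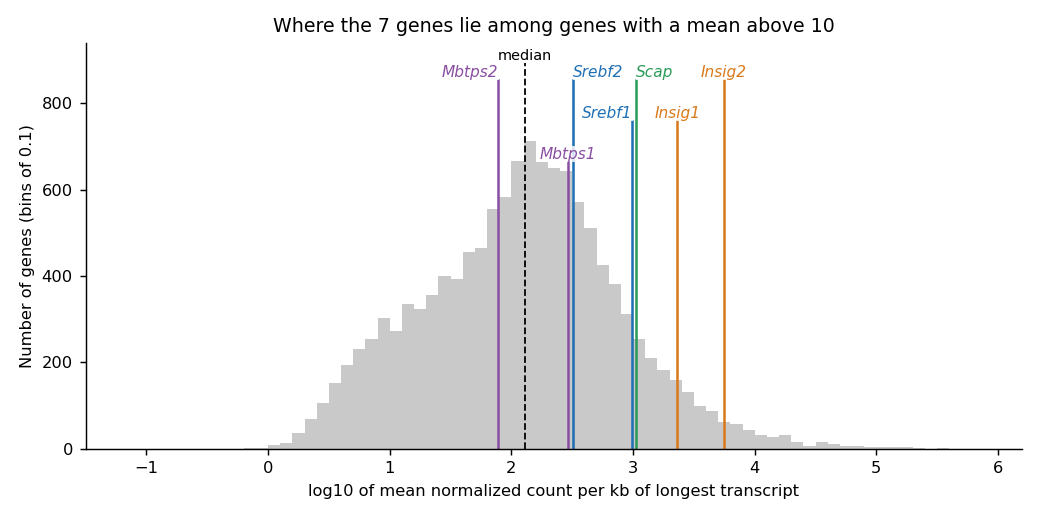
Histogram of the log10 mean normalized count per kb of the longest transcript, in bins of 0.1, for the 12499 genes with a mean above 10 and a length. Coloured lines mark the 7 genes and the dashed line the median of 129. *Mbtps2* lies left of the median, and the other members lie right of it up to *Insig2* at 5544 per kb.

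*Srebf2* is also the host of *Mir33*, whose product miR-33 is known for lowering the sterol exporter Abca1. *Mir33* lies at chr15:82198122-82198190 on the same strand, in intron 16 of the longest *Srebf2* transcript (19 exons), beginning 336 bases after exon 16 in an intron of 1848 bases. Its mature sequences from RefSeq are shown because they are the second product of the *Srebf2* locus, with the seed (bases 2 to 8) in capitals.
mmu-miR-33-5p: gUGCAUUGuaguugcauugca
mmu-miR-33-3p: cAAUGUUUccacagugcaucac
No other mature miRNA of the RefSeq table carried either seed. *Mir33* is listed at 0 in the liver table. The libraries were made from mRNA, which leaves mature miRNAs out, so that value says nothing of the level of miR-33.

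Genes that work with the machinery were followed in 7 lists, with *Lpin1* in 2 of them, and all 105 entries found in the table had a mean above 10. Over the whole table, 12971 of 24421 genes had such a mean. The list for ER retention and turnover of Scap and Insig holds, among others, ubiquitin ligases and the extraction complex that degrade Insig. It also holds genes of neither kind, such as *Pgrmc1*, *Paqr3* and the chaperone genes *Hsp90b1* and *Hspa5*. All 17 genes found had a mean above 10. *Ufd1* is in the table under its older symbol *Ufd1l*, which matched no annotated length, and the median of the other 16 was 634 per kb. *Pgrmc1* (22883 per kb) and *Hsp90b1*, an ER chaperone (9008 per kb), were highest, and *Rnf145* (162 per kb) and *Paqr3* (35.7 per kb) lowest. The COPII coat, which carries the Scap and SREBP complex to the Golgi, had a median of 858 per kb over 12 genes, from *Sec24b* (178 per kb) and *Sec23b* (391 per kb) up to *Sec31a* (1265 per kb) and *Sar1b* (3979 per kb). All 12 lay above the median of 129.

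Partners of nuclear SREBPs and genes of their turnover had the lowest median of the 7 lists, 169 per kb over 19 genes. *Gsk3a* (771 per kb) and *Kpnb1*, the import receptor of SREBP-2 (613 per kb), were highest, and *Crebbp* (49.5 per kb) and *Sirt6* (45.8 per kb) lowest. The 12 regulators of *Srebf1* transcription had a median of 492 per kb. *Rxra*, the partner of the liver X receptors, had 3357 per kb and *Bhlhe40* 1328, against 64.9 for *Rictor* and 21.3 for *Bhlhe41*. The site proteases also cut other membrane proteins, and 7 such clients had a median of 209 per kb. *Creb3l3*, a liver transcription factor, stood at 4788 per kb and *Creb3* at 634, while *Creb3l2* had 22.8 and *Creb3l1* 16.2.

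**Figure D4:**
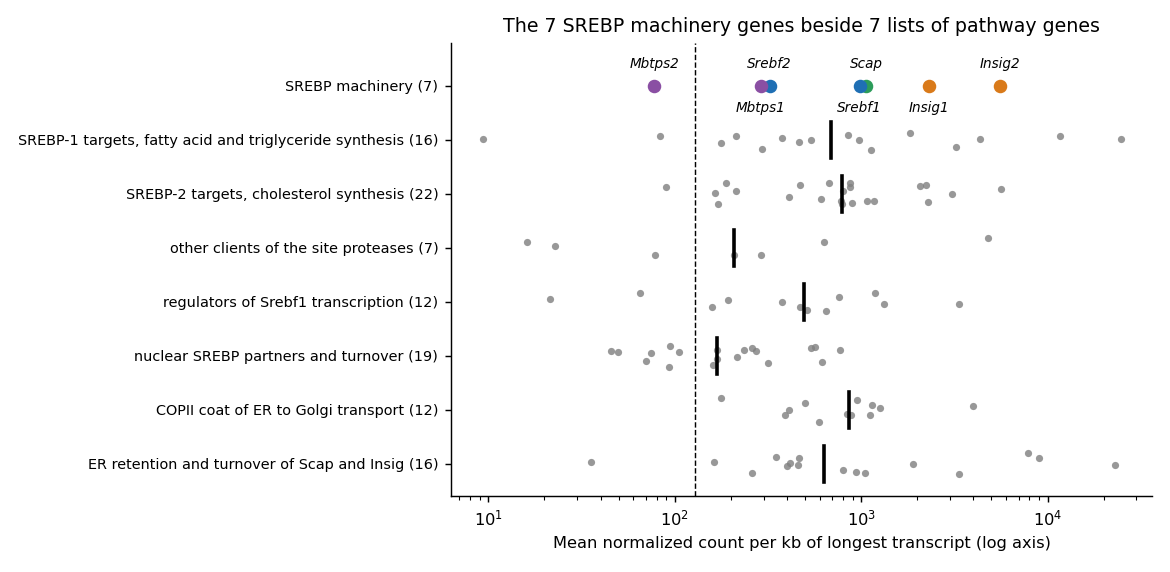
Mean normalized count per kb of the longest transcript, on a log axis, for each gene of 7 pathway lists (grey points, number of genes in parentheses) and for the 7 SREBP machinery genes (coloured points). Black bars are list medians, from 169 to 858 per kb, and the dashed line is the median of 129 over genes with a mean above 10.

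All genes listed here as SREBP targets had a mean above 10, with *Pnpla3* close to that limit at 12.3. Over 22 SREBP-2 targets, most of them enzymes of cholesterol synthesis, the median was 791 per kb, and 21 of the 22 lay above 129. *Ebp*, a sterol isomerase, had a level of 3066 per kb, and *Stard4* (164 per kb) and *Idi1* (90.3 per kb) were lowest. The 16 SREBP-1 targets of fatty acid and triglyceride synthesis had a median of 692 per kb and the widest spread, from *Pnpla3* (9.34 per kb) and *Acaca* (83.6 per kb) to *Elovl5* (11682 per kb) and *Scd1* (24643 per kb). These lists describe which genes are expressed and how highly. They carry no information on the nuclear SREBPs, which are made by cleavage and not measured by mRNA.

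The tissue label was checked against markers. All 8 hepatocyte markers had means above 10, between 27774 for *Apoc3* and 2155550 for *Alb*, serum albumin. Kupffer cell markers had means from 173 to 2374, endothelial markers from 205 to 1273, stellate markers from 81.7 to 4160 and cholangiocyte markers from 25.8 to 1170. Lymphocyte markers reached at most 35.2, skeletal muscle markers 3.24 and adipocyte markers 7.87. Of the 3 pancreas markers in the table, *Cela1* had a mean of 242, *Prss2* 15.4 and *Ins2* 0. The level of a gene in such tissue sums over its cells, so the share of the 7 genes' mRNA that came from cells other than hepatocytes was not measured, and fewer cells of a type cannot be told apart from less RNA per cell.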

How the data were processed

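Hepatic mRNA libraries of 3 WT and 3 *Pai-1*+/- mice were sequenced as single-end reads of 75 bases. Per the labels and the study's methods, the authors used STAR to align reads to mm10 and DESeq2 to compare the groups, both within RNA Express of BaseSpace. HOMER is also named in the submitters' processing notes. Versions, gene annotation, filters and strand setting are not given in the sources used here. The signal column that the authors deposited gives each gene's normalized count (read count over the size factor of its library), averaged over the 6 libraries and not divided by gene length. The means sum to 30045982. Depth per library and counting error are not given here, since the count columns were left out.

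The deposited table also holds the authors' own comparison (fold changes with standard errors, test statistics, p-values, adjusted p-values and a status), and these columns were not used. The deposited counts were not used either, because their 6 columns carry animal numbers that match no label. The quasi-likelihood test of the genotypes that had been planned could not be run. Paralog proteins were not analysed here.

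Of the 24421 genes, 95.6% matched 1 gene of GENCODE M21 on GRCm38 by current or older symbol. Each mean was divided by the length of the longest annotated transcript in kb. Alternatives were the coding length, the union of all exons, no division and, chosen after the data were seen, the longest protein-coding transcript. Shared sequence was counted as 75-base stretches of the longest transcript that occur, on either strand, in a transcript of another gene. Promoter and miRNA sequences came from RefSeq on GRCm38.p6. The 7 genes were all named, and of each list the 2 genes with the highest and the 2 with the lowest level per kb. Some genes are not reported here. The genes that overlap the 7 were named after their values were seen. The genes and the lists were chosen with earlier results of these data known. Ranking and motif search were tested on simulated data. Calculations ran in Python 3.11.15 with pandas 2.3.3, NumPy 2.4.6 and SciPy 1.17.1, and plots were drawn with Matplotlib 3.10.9.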

Additional observations from a re-analysis of the deposited data

How the results depend on the processing

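No paired analysis was possible because the columns of counts per animal carry no replicate number or sample label. The columns of counts per animal match no sample label. The planned DESeq2 test, the fit without a filter and the fits without a replicate were therefore not run. With each of the 4 other ways to divide by length, *Insig2*, *Insig1* and *Mbtps2* kept places 1, 2 and 7 among the 7 genes. *Srebf1* and *Scap*, at places 4 and 3 per kb of longest transcript, changed to 3 and 4 with coding length and with the union of all exons. *Srebf2* and *Mbtps1*, at 5 and 6, changed to 6 and 5 with coding length, with no division and with the longest protein-coding transcript, which was chosen after the data were seen. Of 28 such places, 18 were the same and 10 moved. Among genes with a mean above 10 instead of above 0, the share of genes with a lower level fell from 98.2% to 97.6% for *Insig2* and from 55.0% to 39.0% for *Mbtps2*, because low genes are left out. Without division by length, the order of the 7 lists by median also changed. The COPII coat was at place 1 both ways, while SREBP-2 targets moved from 2 to 3, SREBP-1 targets from 3 to 2, ER retention from 4 to 5, regulators of *Srebf1* from 5 to 4, other protease clients from 6 to 7 and nuclear partners from 7 to 6. At a mean above 50 instead of 10, *Creb3l1* and *Pnpla3* no longer counted as expressed, which left 6 protease clients and 15 SREBP-1 targets.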
